A study of Mus musculus with 30 samples.

Results

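T cell and cytotoxic genes were followed as a set of 10 genes, taken from the deposited table by their symbols: Cd3d, Cd3e, Cd3g, Cd8a, Cd8b1, Cd4, Gzma, Gzmb, Prf1 and Nkg7. All 10 had a row among the 21841 genes of the table, and 8 of the 10 had enough reads to be tested. Cd8b1 and Prf1 did not. The samples were mammary tumors of MMTV-PyMT mice, a transgenic model in which the polyoma middle T antigen is driven by the mouse mammary tumor virus promoter, so that tumors arise spontaneously in mice with their own immune system. The strain was FVB/N-Tg(MMTV-PyVT)634Mul/J throughout, with the genotype given as WT, and whole-tumor RNA was sequenced from 30 tumors, 5 in each of 6 groups.

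The vehicle group was the control. The other groups received 5-fluorouracil (5-FU) at 40 mg/kg every 4 days, gemcitabine at 64 mg/kg every 7 days, KCL-HO-1i at 25 µmol/kg daily, or KCL-HO-1i together with either drug (the KCL-HO-1i/5-FU group and the KCL-HO-1i/gemcitabine group), all injected i.p., with 72 h of treatment given in the labels. In the study's own text the treatment was shorter and the dose of gemcitabine smaller. KCL-HO-1i inhibits heme oxygenase-1, and the 2 chemotherapies block DNA synthesis. The study asked whether inhibiting heme oxygenase-1 improves the T-cell response to chemotherapy, and these genes are the part of the whole-tumor RNA that bears on T cells directly.

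T cells recognize antigen through a receptor that signals through the CD3 chains, encoded by Cd3d, Cd3e and Cd3g. CD8, a pair of chains encoded by Cd8a and Cd8b1, marks cytotoxic T cells, and CD4 marks helper T cells. Cytotoxic T cells and natural killer cells kill by releasing granules that hold perforin (Prf1), which opens the target membrane, and granzymes (Gzma, Gzmb), proteases that enter through it. NKG7 sits in the membrane of those granules. Natural killer cells carry the granule genes without a T cell receptor, and in whole-tumor RNA fewer cells of a type and less RNA per cell cannot be told apart.

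The CD3 genes lie together on chromosome 9 and were correlated with each other across the tumors. For Gzmb, on chromosome 14, the correlation with Cd3g passed the test, while those with Cd3e and Cd3d did not. The promoters of the CD3 genes and of Gzmb are shown, as 250 bases before to 50 bases after the RefSeq start site on GRCm38.p6, read 5′ to 3′ on the strand of the gene. Capitals mark every match on either strand to TGTGGT (the RUNX core), AGGAAG (the ETS core) or AGGTGT (the T-box core), and no match overlapped another. Cd3d (chr9:44981536-44981835, plus strand) and Cd3g (chr9:44980382-44980681, minus strand) point away from each other, with 1355 bases between their start sites. Cd3e lies at chr9:45009562-45009861 and Gzmb at chr14:56262285-56262584, both on the minus strand.
Cd3d: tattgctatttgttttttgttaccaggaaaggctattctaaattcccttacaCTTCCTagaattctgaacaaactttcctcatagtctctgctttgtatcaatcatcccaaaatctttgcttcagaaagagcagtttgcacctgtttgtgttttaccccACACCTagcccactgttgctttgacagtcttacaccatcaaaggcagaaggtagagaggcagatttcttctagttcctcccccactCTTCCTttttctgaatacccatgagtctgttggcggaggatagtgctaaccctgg
Cd3g: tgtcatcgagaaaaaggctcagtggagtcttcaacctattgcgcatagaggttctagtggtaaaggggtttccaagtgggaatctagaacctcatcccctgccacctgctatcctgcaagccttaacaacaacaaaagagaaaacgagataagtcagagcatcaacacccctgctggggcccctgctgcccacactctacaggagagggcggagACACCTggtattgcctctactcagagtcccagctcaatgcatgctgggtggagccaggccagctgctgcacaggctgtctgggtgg
Cd3e: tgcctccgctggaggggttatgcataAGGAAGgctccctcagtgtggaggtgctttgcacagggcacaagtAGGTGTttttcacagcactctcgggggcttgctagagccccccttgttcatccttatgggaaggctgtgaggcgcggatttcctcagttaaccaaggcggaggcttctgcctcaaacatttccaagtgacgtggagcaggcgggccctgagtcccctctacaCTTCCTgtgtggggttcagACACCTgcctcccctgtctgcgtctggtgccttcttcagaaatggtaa
Gzmb: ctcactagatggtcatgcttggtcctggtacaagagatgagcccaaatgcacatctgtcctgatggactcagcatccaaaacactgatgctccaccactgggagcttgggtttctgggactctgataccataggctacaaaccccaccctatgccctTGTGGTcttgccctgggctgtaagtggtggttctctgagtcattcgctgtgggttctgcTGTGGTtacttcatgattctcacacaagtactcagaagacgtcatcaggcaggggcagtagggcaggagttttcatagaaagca

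Promoters were found in RefSeq for 8 of the 10 genes. The RUNX core was in 4 of the 8, against 16.8% of all 32851 promoters of this length, the ETS core in 4 against 35.4%, and the T-box core in 6 against 13.7%. The Gzmb window held 2 RUNX matches, 93 and 34 bases before the start site, and no match to the other motifs. The Cd3d window held 2 ETS matches and 1 T-box match, that of Cd3e held 2 of each, and that of Cd3g held 1 T-box match. The Cd8a window held none. These are matches of letters and were not tied to any factor by a measurement here.

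Reads were few. The 10 genes together took 4311 of 367140702 reads, which is 0.00117%. Total counts per tumor ran from 10067577 to 13622264, and a count of 3 reads stood for between 0.215 and 0.302 CPM (reads scaled to a common depth by the effective library size). Of the 300 values, 82 were at or under 3 reads and 27 were 0. Gzmb had 1378 reads over the 30 tumors, Cd4 786, Cd3g 567, Cd8a 429, Nkg7 303, Cd3e 271, Gzma 232, Cd3d 196, Cd8b1 82 and Prf1 67. Read numbers depend on transcript length, so they give the precision behind each gene and not an order of abundance.

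The tumors expressed the mammary epithelial genes strongly, with 8 such genes summing to between 2908 and 6842 CPM in each tumor. Leukocyte genes were present in each tumor as well, since 8 pan-leukocyte genes summed to between 46.3 and 379.8 CPM. The 10 T cell and cytotoxic genes summed to only 2.64 to 25.7 CPM. The 9 B cell genes summed to 6.87 CPM or less outside 1 tumor, which is described with the CD3 genes.

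The CD3 genes were detected in nearly every tumor at a few reads each. Cd3e, the signaling chain most often used to mark T cells, had 6, 4, 0, 8 and 7 reads in the 5 vehicle tumors. It had 10, 18, 3, 15 and 10 reads in 5-FU, and 6, 5, 38, 7 and 5 in gemcitabine. With KCL-HO-1i it had 6, 20, 9, 1 and 4 reads, with KCL-HO-1i/5-FU 7, 13, 17, 10 and 1, and with KCL-HO-1i/gemcitabine 9, 11, 3, 9 and 9. All groups overlapped, and the gemcitabine mean was set by its replicate 3. As group means, Cd3e was lowest in vehicle, at 0.411 ± 0.269 CPM (SD, n = 5), then KCL-HO-1i at 0.604 ± 0.536, KCL-HO-1i/gemcitabine at 0.701 ± 0.309, KCL-HO-1i/5-FU at 0.778 ± 0.526, 5-FU at 0.901 ± 0.468 and gemcitabine at 1.09 ± 1.34. No 2 neighbors in that order differed by more than the larger of their SDs.

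Cd3g, the gamma chain, had more reads, with a median of 15 reads in vehicle tumors, 22 after 5-FU and 17 after gemcitabine. The median was 19 with KCL-HO-1i, 19 when 5-FU was added to it and 20 when gemcitabine was. Its group means ran from 1.04 ± 0.554 CPM in vehicle to 1.92 ± 1.64 in gemcitabine (SD, n = 5). Cd3d, the delta chain, ran from 0.300 ± 0.225 CPM in vehicle to 0.792 ± 0.95 in gemcitabine, with between 0 and 27 reads a tumor. For all 3 chains vehicle was the lowest group and gemcitabine the highest.

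Gemcitabine replicate 3 stood apart. It had the highest levels of the 30 tumors for Cd3d, Cd3e, Cd3g and Cd8b1, at 2.47, 3.48, 4.76 and 1.46 CPM. The same tumor was also the highest for 8 of the 9 B cell genes and for Ccl19 and Cxcl13 of the 5 lymph node stroma genes. Cd79a, a chain of the B cell receptor complex, had 88 reads there and at most 4 in any other tumor, and Cr2, a marker of follicular dendritic and B cells, had 40 against at most 1. Its B cell genes summed to 28.6 CPM, while the other 29 tumors were at 6.87 CPM or lower. Without this tumor the gemcitabine mean of Cd3e was 0.487 CPM and the summed CD3 level was 2.07 ± 0.660 CPM (SD, n = 4), against 3.80 ± 3.91 with it. The part of these B cell and lymph node genes in the CD3 levels was not tested. At the other end, vehicle replicate 3 had 1 read of the 3 CD3 genes together and 0 of Cd4.

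Cd8a, the alpha chain of CD8, had 6, 5, 7, 18 and 13 reads in vehicle and 6, 19, 30, 14 and 47 in 5-FU. In gemcitabine it had 9, 9, 34, 21 and 8 reads. With KCL-HO-1i it had 4, 10, 12, 0 and 7, the fewest of any group. In the combinations the reads were 10, 13, 20, 17 and 16 with 5-FU, and 11, 5, 6, 42 and 10 with gemcitabine. The order of the group means was KCL-HO-1i at 0.501 ± 0.360 CPM, vehicle at 0.807 ± 0.457, KCL-HO-1i/gemcitabine at 1.17 ± 1.13, KCL-HO-1i/5-FU at 1.23 ± 0.390, gemcitabine at 1.40 ± 1.03 and 5-FU at 1.83 ± 1.17 (SD, n = 5). All groups overlapped, and the mean of KCL-HO-1i/gemcitabine rested on replicate 4. Cd8b1, the beta chain, was at 0 in 11 of the 30 tumors, including 3 of the 5 vehicle and 3 of the 5 KCL-HO-1i tumors, and had 5 to 25 reads in each group as a whole.

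Cd4 had 17, 12, 0, 34 and 9 reads in vehicle. As a group mean it was lowest in vehicle, at 1.20 ± 1.10 CPM, followed by gemcitabine at 1.88 ± 1.71, KCL-HO-1i at 1.97 ± 1.11, 5-FU at 2.27 ± 0.665, KCL-HO-1i/gemcitabine at 2.75 ± 1.11 and KCL-HO-1i/5-FU at 2.96 ± 2.31 (SD, n = 5). The groups again overlapped. Set against each other as summed reads, Cd4 to Cd8a was 1.47 for vehicle, 1.22 after 5-FU and 1.26 after gemcitabine. It was 3.85 after KCL-HO-1i, 2.39 after its combination with 5-FU and 2.18 after that with gemcitabine. Single tumors ran from 0 to 2.83 in vehicle and from 1.86 to 4.00 in the 4 KCL-HO-1i tumors with any Cd8a read, so the groups overlapped, and this ratio was not tested.

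Gzmb, the granzyme B gene, was highest after 5-FU. It had 14, 55, 77, 167 and 135 reads in the 5-FU tumors and 23, 20, 17, 44 and 40 in vehicle. All 5-FU tumors but replicate 1 were above all vehicle tumors, and replicate 1 was below them all. After gemcitabine the reads were 37, 25, 15, 68 and 14, and after KCL-HO-1i they were 20, 59, 29, 9 and 76. The combination with 5-FU had 37, 32, 62, 58 and 42 reads and that with gemcitabine 43, 17, 38, 85 and 20. These 4 groups overlapped with vehicle. As levels, vehicle was at 2.36 ± 0.983 CPM, gemcitabine at 2.63 ± 1.63, KCL-HO-1i at 3.03 ± 2.25, KCL-HO-1i/gemcitabine at 3.25 ± 1.9, KCL-HO-1i/5-FU at 3.74 ± 1.32 and 5-FU at 7.11 ± 4.83 (SD, n = 5). Per read of the 3 CD3 genes, Gzmb stood at 1.35 reads for vehicle, 2.10 after 5-FU and 0.746 after gemcitabine, the latter 1.5 without replicate 3, where Gzmb had 15 reads beside 117 of CD3. It stood at 1.18 after KCL-HO-1i, 1.43 in the combination with 5-FU and 1.15 in that with gemcitabine. Single tumors ran from 0.821 to 17 in vehicle, where replicate 3 had 17 Gzmb reads beside 1 of CD3, and from 0.519 to 3.15 in 5-FU. The groups overlapped, and this ratio was not tested either.

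Gzma, the granzyme A gene, was present in some tumors and nearly absent in others of the same group. Vehicle tumors had 1, 2, 1, 19 and 15 reads and 5-FU tumors 1, 14, 38, 18 and 28. Gemcitabine tumors had 1, 1, 0, 3 and 1, all at or under 3 reads. KCL-HO-1i tumors had 1, 3, 1, 0 and 23 reads, KCL-HO-1i/5-FU tumors 1, 0, 9, 2 and 2, and KCL-HO-1i/gemcitabine tumors 4, 12, 5, 25 and 1. Nkg7 ran from 0.492 ± 0.313 CPM in vehicle to 1.20 ± 0.349 in 5-FU (SD, n = 5), with 3 to 11 reads in vehicle tumors and 8 to 20 in 5-FU tumors. Prf1, the perforin gene, had at most 9 reads in any tumor and was at 0 in 9, so that differences in it were not detectable at this depth.

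The spread between tumors of a group was wider than counting error for all 10 genes. Scaled to a common depth, the variance within groups over the mean was between 2.81 for Prf1 and 20.7 for Gzmb, where counting alone gives about 1.

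The CD3 genes, Cd4 and Nkg7 varied together across tumors, and Cd8a varied with Gzmb and Gzmb with Gzma, Cd3g and Nkg7. Over the 30 tumors, log2 CPM of Cd3e was correlated with that of Cd3g (Pearson r = 0.81, Spearman rho = 0.61, adjusted permutation p = 0.00011 and 0.00209), Cd4 (r = 0.70, rho = 0.68, adjusted p = 0.00011 and 0.00099), Cd3d (r = 0.68, rho = 0.54, adjusted p = 0.000147 and 0.00685) and Nkg7 (r = 0.61, rho = 0.58, adjusted p = 0.0011 and 0.00389). The correlation with Cd8a was lower (r = 0.46, rho = 0.42, adjusted p = 0.0222 and 0.0391), and so was that to Ptprc, the common leukocyte gene (r = 0.46, rho = 0.48, adjusted p = 0.0206 and 0.0173). Neither Gzmb (r = 0.21, rho = 0.19, adjusted p = 0.361 and 0.380) nor Gzma (r = 0.10, rho = 0.10, adjusted p = 0.642 and 0.648) passed. Prf1 (r = 0.24, rho = 0.31, adjusted p = 0.325 and 0.143), the macrophage gene Adgre1 (r = 0.16, rho = 0.28, adjusted p = 0.495 and 0.189) and the epithelial gene Epcam (r = -0.07, rho = 0.01, adjusted p = 0.698 and 0.976) did not pass either. These are 11 relations with adjustment over the 11, in tumors of all 6 groups, and each used 100000 permutations, for which the smallest p is 1e-05 before adjustment.

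Part of these correlations rested on 2 tumors, vehicle replicate 3 and gemcitabine replicate 3, which lay farthest from the Cd3e median. Without both, Pearson r was 0.68 with Cd3g, 0.60 with Cd4, 0.44 with Cd3d, 0.68 with Nkg7, 0.37 with Cd8a, 0.35 with Ptprc, 0.31 with Gzmb, 0.20 with Gzma, 0.19 with Prf1, 0.24 with Adgre1 and -0.09 with Epcam. The correlation with Cd8a lost its call when gemcitabine replicate 3 or KCL-HO-1i replicate 4 alone was left out (r = 0.36 each), and so did that with Ptprc without vehicle replicate 3 (r = 0.33).

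Among all 45 pairs of the 10 genes, Spearman rho ran from 0.03 to 0.77, and 24 pairs passed at an adjusted permutation p under 0.05. The highest was Gzma with Gzmb (r = 0.74, rho = 0.77, adjusted permutation p = 0.00015 and 0.00045, r = 0.69 without the 2 tumors farthest from the Gzma median). Pairs of Gzmb that also passed were those with Cd3g (r = 0.42, rho = 0.45, adjusted permutation p = 0.0393 and 0.036, r = 0.60 without 2 tumors) and Nkg7 (r = 0.52, rho = 0.57, adjusted permutation p = 0.0119 and 0.0054, r = 0.45 without 2 tumors). Cd8a was correlated with Gzmb (r = 0.63, rho = 0.63, adjusted permutation p = 0.00112 and 0.00129, r = 0.49 without 2 tumors), while Cd8a and Cd8b1, which encode the 2 chains of CD8, did not pass (r = 0.19, rho = 0.09, adjusted permutation p = 0.382 and 0.739, r = 0.30 without 2 tumors). Prf1 was correlated with Cd4 (r = 0.57, rho = 0.67, adjusted permutation p = 0.00318 and 0.00099, r = 0.64 without 2 tumors), and its correlation with Gzmb did not pass (r = 0.04, rho = 0.03, adjusted permutation p = 0.864 and 0.893, r = -0.08 without 2 tumors). Cd8b1 had a median of 1.5 reads and was at 0 in 11 tumors, and Prf1 had a median of 2 and was at 0 in 9. At so few reads a pair that did not pass cannot be read as unrelated. With the group means taken out, r was 0.76 for Gzma and Gzmb, 0.62 for Cd8a and Gzmb and 0.62 for Prf1 and Cd4. It was 0.38 for Cd3g and Gzmb and 0.41 for Nkg7 and Gzmb. These pairs were named after their values were seen.

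**Figure D1:**
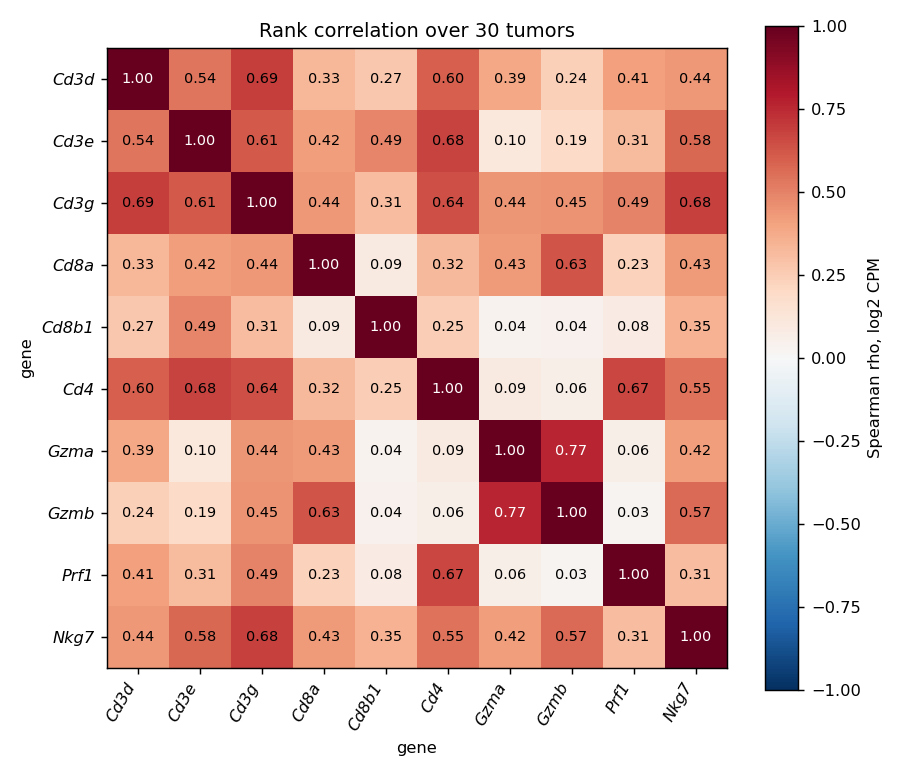
Spearman rho of log2 CPM for each pair of the 10 genes over 30 tumors (color and printed value; both axes list the genes). The 3 CD3 genes and Cd4 are at 0.54 to 0.69 with each other, and Gzma with Gzmb is the highest at 0.77.

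**Figure D2:**
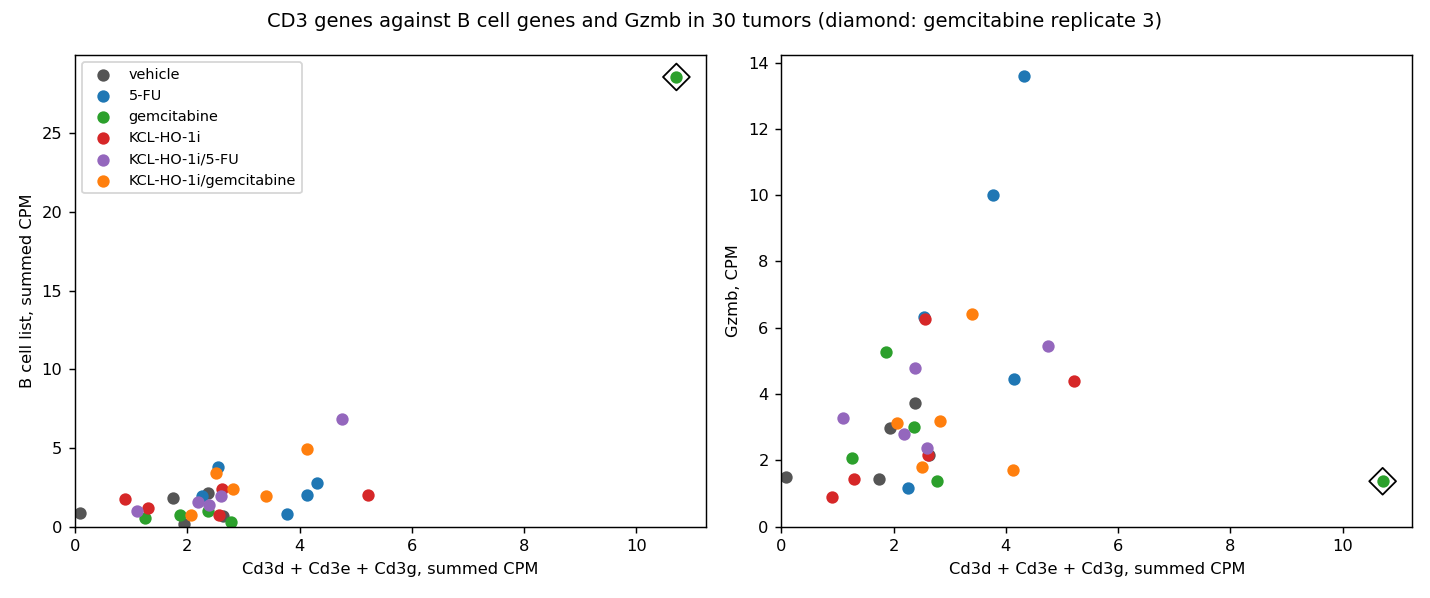
Summed CPM of Cd3d, Cd3e and Cd3g (horizontal axes) against the summed CPM of 9 B cell genes (left) and the CPM of Gzmb (right), with a point for each of the 30 tumors colored by group. Gemcitabine replicate 3, the diamond, lies at 10.7 CPM for CD3, 28.6 for B cell genes and only 1.37 for Gzmb.

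Outside the set, the tested genes most like Cd3e by Spearman rho over the 30 tumors were Ctsw (0.77), Cwf19l2 (0.75), Itgb7 (0.73), Ltb (0.72) and Ikzf3 (0.71). Ctsw encodes cathepsin W of cytotoxic lymphocytes, Itgb7 an integrin chain of lymphocytes, Ltb lymphotoxin beta and Ikzf3 the lymphocyte factor Aiolos. For Cd8a they were Zfp59 (0.67), Zfp30 (0.64), Ephx1 (0.62), Pld3 (0.62) and Slc3a2 (0.61), none of them a lymphocyte marker. For Gzmb they were Tusc1 (0.72), Scly (0.71), Sp110 (0.70), Pbxip1 (0.70) and Psmb8 (0.69), of which Sp110 and Psmb8, a subunit of the immunoproteasome, are interferon-induced. They were the highest of 13655 genes compared, so the values are a description.

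Differences between groups were tested with the quasi-likelihood test of edgeR on the counts of all 30 tumors, with Benjamini-Hochberg adjustment over 13663 genes and a threshold of 0.05. No gene of the set passed in any of the 12 comparisons, 96 tests in all, and the smallest adjusted p was 0.324. Over all genes the share passing was 0% in each comparison except the average of KCL-HO-1i over its backgrounds, where it was 0.0586%. At an unadjusted p under 0.05 there were 5 of the 96. The share of all genes tested at that threshold ran from 1.34% to 23% across the comparisons. DESeq2 also called 0 of the 96, with 7 at an unadjusted p under 0.05, and limma-voom called 0, with 4. In the combinations against vehicle and that average, DESeq2 called 3% to 8.38% of all genes and limma-voom 1.24% to 9.59%. Log2 fold changes carried standard errors of 0.535 to 1.19 between a pair of groups. Even at the smallest of these, changes under about a doubling could not be told from the spread between tumors. Larger changes, such as 1.59 for Gzmb after 5-FU, did not pass the adjusted threshold either.

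After 5-FU alone, all 8 tested genes were higher than in vehicle, with a median log2 fold change of 1.14 beside 0.00 over all genes. The 8 values ran from 0.85 for Cd3g to 1.59 for Gzmb. Gzmb was higher by 1.59 (SE 0.55, 95% interval 0.45 to 2.72, unadjusted p = 0.00791, adjusted p = 0.999), and it was the only 1 of the 8 with an unadjusted p under 0.05, beside 3.89% of all genes tested. Cd8a was higher by 1.17 (SE 0.64, 95% interval -0.15 to 2.49, unadjusted p = 0.0792, adjusted p = 0.999). No gene in the whole table passed the adjusted threshold in this comparison (0% of genes). Vehicle replicate 3 held part of the difference. Without it the median was 0.93 and the 3 CD3 genes were higher by 0.54 to 0.80, against 0.85 to 1.12 with it.

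After gemcitabine alone, 7 of the 8 genes were higher than in vehicle and Gzma was lower, with a median of 0.71 beside 0.03 over all genes. Without gemcitabine replicate 3 the median was 0.27. Gzma was lower by 2.48 on the log2 scale (log2 fold change -2.48, SE 1.19, unadjusted p = 0.0464, adjusted p = 0.941), the only 1 of the 8 with an unadjusted p under 0.05, beside 3.83% of all genes tested. It rested on 2 vehicle tumors with 19 and 15 reads, and without vehicle replicate 4 it was -1.76. The CD3 genes were higher by 0.87 to 1.38, and by 0.20 to 0.30 without gemcitabine replicate 3. Cd8a was at 0.79 (SE 0.64, 95% interval -0.53 to 2.11, unadjusted p = 0.229, adjusted p = 0.941), and at 0.28 without that tumor. Gzmb was at 0.16 (SE 0.55, 95% interval -0.96 to 1.28, unadjusted p = 0.775, adjusted p = 0.989). Calls at the adjusted threshold were again 0% of all genes.

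With KCL-HO-1i alone no direction was shared by the set. The median was 0.52 beside -0.01 over all genes, 6 genes were above 0 and 2 below, and 0 of the 8 had an unadjusted p under 0.05, beside 9.43% of all genes tested. Cd8a was at -0.66 (SE 0.66, 95% interval -2.01 to 0.69, unadjusted p = 0.326, adjusted p = 0.868) and Gzmb at 0.36 (SE 0.55, 95% interval -0.76 to 1.48, unadjusted p = 0.515, adjusted p = 0.942). Cd8a was the lowest value of the 8, at -0.32 without vehicle replicate 4, and the 3 CD3 genes lay between 0.47 and 0.64. Single tumors moved these values. The median was 0.097 without KCL-HO-1i replicate 2 and 0.22 without vehicle replicate 3, where the CD3 genes lay between 0.16 and 0.31.

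In the combination with 5-FU the median was 0.63 beside 0.01 over all genes, and 0 of the 8 genes had an unadjusted p under 0.05, beside 17.6% of all genes tested. Cd8a was at 0.60 (SE 0.64, 95% interval -0.72 to 1.91, unadjusted p = 0.362, adjusted p = 0.667) and Gzmb at 0.66 (SE 0.55, 95% interval -0.46 to 1.78, unadjusted p = 0.239, adjusted p = 0.552). The highest value was that of Cd4 at 1.29 and the lowest that of Gzma at -1.37.

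In the combination with gemcitabine the median was 0.68 beside 0.02 over all genes, with all 8 genes above 0 and 0 of the 8 at an unadjusted p under 0.05, beside 19.8% of all genes tested. Cd8a was at 0.54 (SE 0.64, 95% interval -0.77 to 1.86, unadjusted p = 0.403, adjusted p = 0.695), and it turned to -0.25 without replicate 4 of that combination, which held 42 of its 74 Cd8a reads. Gzmb was at 0.46 (SE 0.55, 95% interval -0.66 to 1.58, unadjusted p = 0.406, adjusted p = 0.699). Cd4 was again the highest, at 1.18. All 5 comparisons share the vehicle tumors. The sample descriptions also carry a mouse code, whose meaning they do not state. Only the KCL-HO-1i/gemcitabine group shared a code with vehicle tumors, through its replicate 5 and vehicle replicate 1. In the other comparisons with vehicle, treatment and code cannot be told apart.

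**Figure D3:**
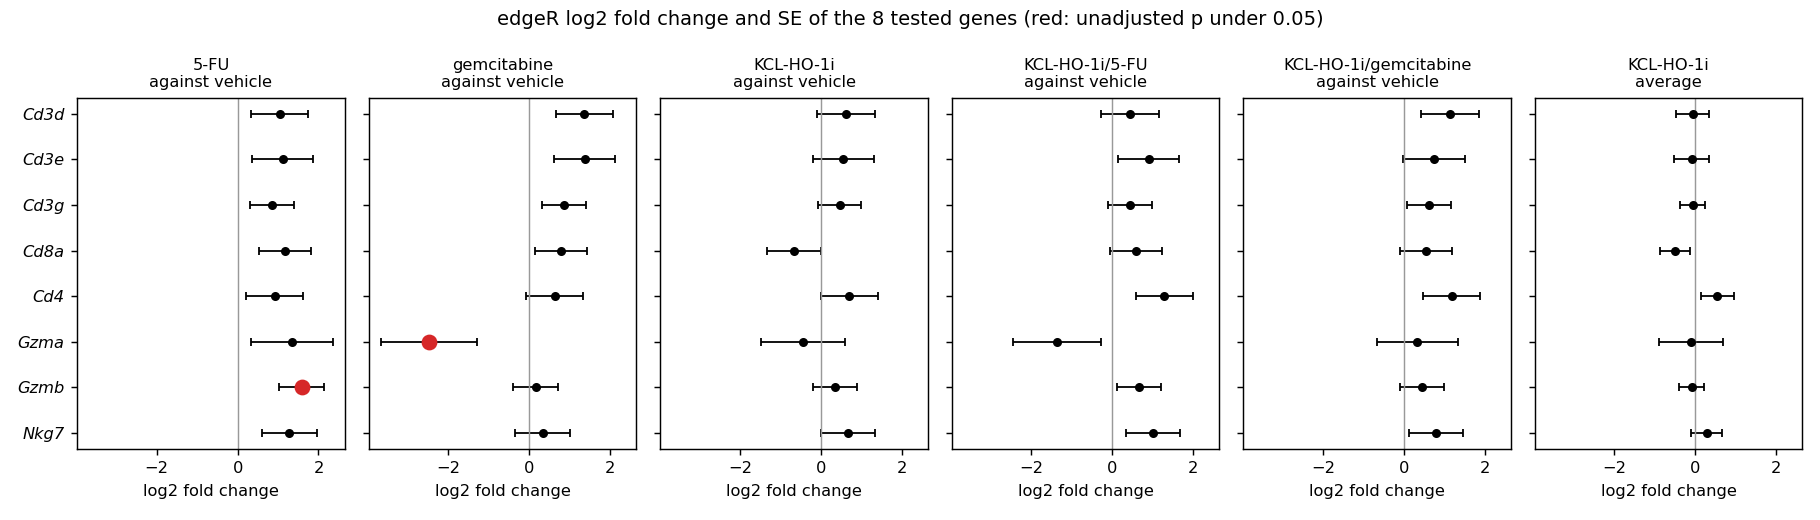
Log2 fold change (horizontal axes) with its standard error for the 8 tested genes (rows) in each treatment against vehicle and for KCL-HO-1i averaged over its 3 backgrounds. Red points have an unadjusted p under 0.05, which are Gzmb after 5-FU at 1.59 and Gzma after gemcitabine at -2.48, and no point passed the adjusted threshold.

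Averaged over vehicle, 5-FU and gemcitabine as backgrounds, 15 tumors with KCL-HO-1i against 15 without, the set had a median of -0.08 beside 0.00 over all genes. Of the 8 genes 6 were below 0 and 2 above, and 0 of the 8 had an unadjusted p under 0.05, beside 23% of all genes tested. Cd8a was at -0.49 (SE 0.37, 95% interval -1.25 to 0.26, unadjusted p = 0.193, adjusted p = 0.452), Gzmb at -0.09 (SE 0.31, 95% interval -0.73 to 0.56, unadjusted p = 0.780, adjusted p = 0.899), and Cd4 was the highest at 0.55. The 3 CD3 genes lay between -0.09 and -0.06. Over all genes 0.0586% passed the adjusted threshold, and no gene of the set was among them. The median was -1.06 with the mouse code, whose meaning the sample descriptions do not state, as a covariate. With gemcitabine replicate 3 left out it was 0.22, and without the 2 tumors richest in muscle and adipocyte genes (KCL-HO-1i replicate 4 and KCL-HO-1i/gemcitabine replicate 2) it was -0.05.

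Adding KCL-HO-1i to 5-FU gave values below 0 for 7 of the 8 genes, with a median of -0.49. Gzma was lower than in 5-FU alone by 2.71 on the log2 scale (log2 fold change -2.71, SE 1.09, unadjusted p = 0.0190, adjusted p = 0.359). It was the only 1 of the 8 with an unadjusted p under 0.05, beside 11.4% of all genes tested. Gzmb was at -0.93 (SE 0.54, unadjusted p = 0.0980, edgeR). The groups overlapped, since 3 of the 5-FU tumors were above all tumors of the combination, which had 32 to 62 reads, replicate 2 with 55 reads was within their range and replicate 1 with 14 was below it.

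Adding KCL-HO-1i to gemcitabine gave a median of 0.04, which was 0.52 without gemcitabine replicate 3 and -0.16 when replicate 4 of the combination was left out. Gzma was higher by 2.82 (SE 1.18, unadjusted p = 0.0248, adjusted p = 0.324), from at most 3 reads in gemcitabine tumors to 1 to 25 in the combination, and it was the only 1 of the 8 with an unadjusted p under 0.05, beside 13.5% of all genes tested. The CD3 genes lay between -0.62 and -0.22 there, and between 0.41 and 0.85 without gemcitabine replicate 3. The tumors of these groups shared no mouse code, so KCL-HO-1i and code cannot be told apart in this comparison.

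Set against KCL-HO-1i alone, the combination with 5-FU had a median of 0.31 and that with gemcitabine 0.33, with 0 of the 8 genes at an unadjusted p under 0.05 in either, beside 16.9% and 2.66% of all genes tested. Without KCL-HO-1i/5-FU replicate 3 the first was -0.0031, and without KCL-HO-1i replicate 4 the second was 0.14. Cd8a was the highest of the 8 in both, at 1.25 (unadjusted p = 0.0666, edgeR) and 1.20 (unadjusted p = 0.0775). The interaction, which asks whether KCL-HO-1i and a chemotherapy together differ from the sum of their separate log2 changes, had a median of -0.92 with 5-FU and -0.18 with gemcitabine. Without KCL-HO-1i replicate 2 the first was -0.60, and without gemcitabine replicate 3 the second was 0.06. With 5-FU 0 of the 8 genes had an unadjusted p under 0.05, beside 8.53% of all genes. With gemcitabine only Gzma did, at 3.25 (SE 1.57, unadjusted p = 0.0479, adjusted p = 1.000), beside 1.34% of all genes.

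Other genes of the same cells were read from lists. Of 24 genes of cytotoxic and natural killer cells outside the set, 9 were tested. The filter kept a gene with enough reads in as few as 5 tumors, so a scarce gene could enter through the group where it was high. This list was also chosen with earlier results of these data known, so its counts are a description. After 5-FU all 9 were higher than in vehicle, with a median of 1.59, and 6 of the 9 had an unadjusted p under 0.05, beside 1.65% of all genes in that direction. They included Gzmc, granzyme C, at 2.02 (unadjusted p = 0.00122), Il2rb, a chain of the interleukin-2 and interleukin-15 receptors, at 1.59 (unadjusted p = 0.00222), Cd96, a receptor of T and natural killer cells, at 1.79 (unadjusted p = 0.0162), and Ncr1, a receptor that marks natural killer cells, at 2.20 (unadjusted p = 0.0220). None passed with edgeR's adjustment (adjusted p = 0.999 for each). Without vehicle replicate 3 there were 5 of 10 tested, with a median of 1.55. Against the same vehicle tumors the list had a median of 0.76 after gemcitabine, with 2 of 9 higher at an unadjusted p under 0.05 beside 2.05% of all genes, and of 0.80 after KCL-HO-1i, with 3 of 9 beside 7.36%. It had a median of 1.12 after KCL-HO-1i/5-FU, with 4 of 9 beside 9.79%, and of 1.18 after KCL-HO-1i/gemcitabine, with 5 of 9 beside 11.7%. The share over all genes thus differed between these comparisons along with the counts. With edgeR 0 passed the adjustment in any of these, while limma-voom and DESeq2 each called 1 of the 9 in the combination with 5-FU, beside 1.24% and 3% of all genes. In the combination with gemcitabine limma-voom called 2 beside 9.59% and DESeq2 0 beside 6.49%.

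Signaling genes of the T cell receptor formed another list. Of 24 such genes, 21 had a row and 10 were tested. Their median after 5-FU was 0.69, with 1 of the 10, Lcp2, at an unadjusted p under 0.05, beside 3.89% of all genes tested. Averaged over backgrounds with KCL-HO-1i, Lcp2, an adaptor that T cells share with myeloid cells, rose by 0.99 (SE 0.19, adjusted p = 0.0313 with edgeR). It was the only 1 of the 10 to pass, beside 0.0586% of all genes, with a median of 0.41 for the list. With 1 of the 30 tumors left out at a time, no gene of the list passed in 19 of the 30 fits. Thy1, also made by fibroblasts and vessels, was at 1.14 (adjusted p = 0.0532) and Cd247, the zeta chain, at 0.50 (adjusted p = 0.147). In the same average the cytotoxic and natural killer list had a median of 0.32 with 1 of 9 at an unadjusted p under 0.05, beside 13.7% of all genes in that direction.

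Broader leukocyte genes stood higher than the 10 genes in that average. The median was 0.70 for 8 pan-leukocyte genes, of which 7 had an unadjusted p under 0.05, and 0.78 for 10 macrophage genes, of which 9 did, all higher, beside 13.7% of all genes in that direction and the median of -0.08 of the T cell and cytotoxic set. With edgeR 0 of either list passed the adjusted threshold, while DESeq2 called 5 and 7, beside 8.38% of all genes, and limma-voom 1 and 2, beside 1.92%. With 1 tumor left out at a time, 24 of the 30 fits with edgeR called no gene of either list, and the most calls, 6 and 8, came without gemcitabine replicate 5, where 8.17% of all genes were called. Coro1a, an actin-binding gene of leukocytes, was at 0.69 (adjusted p = 0.0558), Ptprc at 0.71 (adjusted p = 0.0650) and C1qb, a complement gene of macrophages, at 0.79 (adjusted p = 0.0558). The difference between the lists and the set was not itself tested. Of 6 dendritic cell genes tested 1 had an unadjusted p under 0.05, with a median of 0.55, of 8 mammary epithelial genes 1, lower, with a median of -0.15, and of 7 adipocyte and 6 skeletal muscle genes all did, with medians of 2.20 and 3.33, beside 23% of all genes in either direction. The single tested B cell gene, Cd22, and the single tested lymph node stroma gene, Ccl21a, did not. The muscle genes summed to 10371 CPM in KCL-HO-1i/gemcitabine replicate 2 and to 3526 and 1399 CPM in KCL-HO-1i replicates 4 and 3. Every other tumor was at 252 CPM or lower. For KCL-HO-1i/5-FU against 5-FU all 6 muscle genes were below 0, from -2.69 for Ckm to -1.63 for Myh4. The adipocyte genes were highest in KCL-HO-1i/gemcitabine replicate 2 and KCL-HO-1i replicate 4, at 7479 and 6836 CPM.

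**Figure D4:**
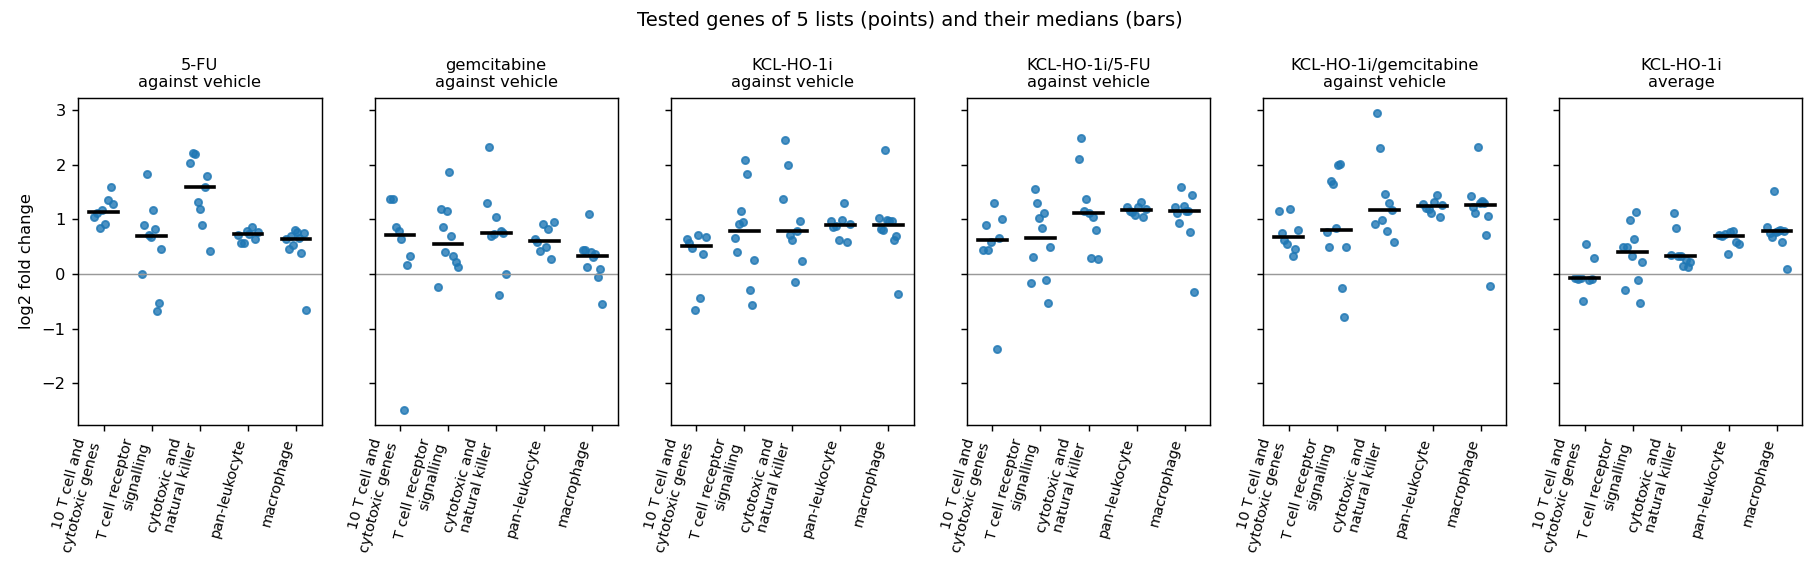
Log2 fold change (vertical axis) of the tested genes of 5 lists (points; bars are medians) in each treatment against vehicle and for KCL-HO-1i averaged over its backgrounds. After 5-FU the cytotoxic and natural killer list has a median of 1.59 and the 10-gene set 1.14, and in the KCL-HO-1i average the set is at -0.08 beside 0.70 for pan-leukocyte and 0.78 for macrophage genes.

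Genes of other cell types were also higher in some 5-FU tumors. In 5-FU tumors the pan-leukocyte genes summed to 83.1 to 193.4 CPM against 46.3 to 126.9 in vehicle, and the B cell genes to 0.82 to 3.77 CPM against 0.15 to 2.12. Ccl21a, a chemokine of lymphatic vessels and lymph node stroma, was at 0 in all 5 vehicle tumors and had up to 139 reads in 5-FU tumors. It reached 81 reads after gemcitabine, 16 after KCL-HO-1i, 47 in the combination with 5-FU and 143 in that with gemcitabine, where 3 tumors were at 0. The part of these genes in the higher Gzmb and natural killer genes was not tested.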

How the data were processed

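RNA was sequenced from 30 tumors with a stranded kit. Per the labels and the study's methods, the authors used FastQC 0.11.9, STAR 2.7.9a and Salmon 1.9.0 with build mm10, and DESeq2. The deposited values are expected counts, which are read numbers per gene before any scaling, although the study's methods speak of TPM. They were rounded to whole numbers. The 10 genes and all lists were chosen with earlier results of these data known. Gene symbols of the lists without a row were left out.

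The test of counts was that of edgeR 4.0.16 run under R 4.3.3 (TMM scaling, robust quasi-likelihood, filterByExpr with a minimum count of 10, 6 group means, 12 contrasts). Folds and p are named for each gene of the set with an unadjusted p under 0.05 and for Cd8a and Gzmb in each treatment against vehicle and in the KCL-HO-1i average whatever their values, with up to 4 genes of a list by smallest p (Ptprc was named for its role) and the 5 most alike genes. CPM used effective library sizes, and log2 CPM a prior count of 2. Alternatives were RLE, DESeq2 1.42.0, limma-voom (limma 3.58.1, with a quality weight for each library and robust moderation), no filter, a filter at 50 mean counts, a block for replicate number, a term for the mouse code in the descriptions (meaning not stated), only the groups compared, and each library left out. Scripts were tested on simulated data. Per the study, each group was a cohort of 5 mice and tumors, so p-values measure the spread between tumors. Floors cover counting error only.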

Additional observations from a re-analysis of the deposited data

Results flagged for a closer look

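Of 60 sets of 5 tumors (10 genes in 6 groups), 12 held a tumor far above the rest of its group, by a gap over range above Dixon's 95% critical value of 0.71. For normally distributed values chance alone gives about 1 in 20 when a gap at either end counts, and fewer for the high end alone. These are low counts, with 82 of 300 values at or under 3 reads, and their own rate was not determined. The 12 of 60 are therefore a description. Gemcitabine replicate 3 accounted for 4 of the 12, with Cd3d at 2.47 CPM (27 reads, next tumor 0.596 CPM), Cd3e at 3.48 (38 reads, next 0.543), Cd3g at 4.76 (52 reads, next 1.69) and Cd8b1 at 1.46 (16 reads, next 0.327). These genes are in T cells together, so the 4 are not separate events. The same tumor held the highest levels of 8 of 9 B cell genes.

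Cd8a was at 3.17 CPM in KCL-HO-1i/gemcitabine replicate 4 (42 reads, next 0.895). Gzma was at 1.9 CPM in KCL-HO-1i replicate 5 (23 reads, next 0.224). KCL-HO-1i/5-FU replicate 3 was apart for both Gzma, at 0.793 CPM (9 reads, next 0.165), and Prf1, at 0.793 CPM (9 reads, next 0.222).

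The remaining tumors rested on few reads. Cd8b1 was at 0.291 CPM in vehicle replicate 2 (4 reads, next 0.0744) and at 0.671 CPM in KCL-HO-1i replicate 2 (9 reads, next 0.0994). Prf1 was at 0.603 CPM in KCL-HO-1i/gemcitabine replicate 2 (6 reads, next 0.151), and Nkg7 at 1.03 CPM in vehicle replicate 1 (11 reads, next 0.446).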

How the results depend on the processing

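No gene of the set passed the adjusted threshold under any of the 240 alternative values computed over the 12 comparisons, which included RLE scaling, DESeq2, limma-voom, no filter, the replicate block and each library left out. The smallest adjusted p was 0.0612 with limma-voom, 0.211 with DESeq2 and 0.191 with a library left out. Over all genes the main fit passed at most 0.0586% in any comparison. With the replicate number as a block, 4 of 96 tests had an unadjusted p under 0.05, against 5 without it, and 0 were called. Tumors with the same number did not deviate together on average (mean correlation 0.00284 over 75 pairs, lowest -0.58). A mean cannot exclude pairing of some of them. The filter at a mean of 50 counts left no gene of the set and gave no value. Of the medians, 239 of 240 moved by less than 0.66 on the log2 scale, the SD between tumors of a group of the mean over the set. A median within that tolerance could still change sign, as in the KCL-HO-1i average, KCL-HO-1i/gemcitabine against gemcitabine, the combination with 5-FU against KCL-HO-1i alone and the interaction with gemcitabine. The exception was the KCL-HO-1i average with the mouse code as a covariate, at -1.06, and 1 of 8 tests then had an unadjusted p under 0.05. That fit compares tumors with and without KCL-HO-1i within few tumors, since few codes held both. The cause of the shift was not tested.

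Directions that turned were all of values far from the threshold. Gzmb after gemcitabine was -0.0071 with limma-voom and ran from -0.26 (without gemcitabine replicate 4) to 0.39 over the libraries left out. Gzmb after KCL-HO-1i ran from -0.10 (without replicate 5) to 0.58. Cd8a after KCL-HO-1i/gemcitabine ran from -0.25 (without replicate 4) to 0.89. Gzmb in the KCL-HO-1i average was 0.041 with limma-voom and 0.0031 with the replicate block, and ran from -0.25 to 0.038. Over the libraries left out, Gzmb after 5-FU ran from 1.21 to 1.85, with an unadjusted p of 0.00152 to 0.0414, and Gzma after gemcitabine from -3.04 to -1.76, with an unadjusted p of 0.0312 to 0.166 (largest without vehicle replicate 4). Gzma ran from -3.88 to -2.31 for KCL-HO-1i/5-FU against 5-FU (unadjusted p 0.00462 to 0.0522), from 2.17 to 3.35 for KCL-HO-1i/gemcitabine against gemcitabine (0.0161 to 0.0906) and from 2.52 to 5.38 for the interaction with gemcitabine (0.00192 to 0.128).

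The correlation of Cd3e with Cd8a was 0.40 with group means removed (adjusted permutation p = 0.0533) and ran from 0.36 to 0.53 over the libraries left out. The ranges were 0.33 to 0.54 with Ptprc, -0.024 to 0.41 with Adgre1 and -0.20 to 0.050 with Epcam. Without both tumors rich in muscle and adipocyte genes, an alternative chosen after seeing the data, the medians were 0.74 for KCL-HO-1i and 0.68 for KCL-HO-1i/gemcitabine against vehicle. Depth limits Prf1 and Cd8b1 most, since 82 of the 300 values were at or under 3 reads.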

Other observations

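Summed over the 10 genes, 5-FU tumors had the highest median, at 19.2 CPM (lowest 6.19, highest 25.7). Vehicle tumors had the lowest, at 8.18 CPM (2.64 to 12.8). The median was 10.03 CPM with gemcitabine, 10.5 with KCL-HO-1i, 11.3 with KCL-HO-1i/5-FU and 11.8 with KCL-HO-1i/gemcitabine. All groups overlapped, and the sum was not tested.

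Cd8b1 and Prf1 could be fitted only when no filter on low counts was used. Cd8b1 was then at 1.81 (SE 1.30, unadjusted p = 0.177 in the quasi-likelihood test of edgeR) after 5-FU and at 2.38 (SE 1.31, unadjusted p = 0.0792) after gemcitabine against vehicle, where 16 of its 25 reads were in replicate 3. Prf1 was at 0.04 after 5-FU.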
